A study of Homo sapiens with 17 samples.

Results

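The genes described here are the 10 members of the MYC and MAX network that the study's count table was searched for by symbol: MYC, MYCN, MAX, MXD1, MXD3, MXD4, MXI1, MNT, MLX and MGA. All 10 were among the 19141 genes of the table, and all 10 passed the filter on low counts. They were measured in YB5, a single line made from SW48 colon cancer cells by inserting a GFP reporter whose CMV promoter is methylated and silent. The cells received toyocamycin, an adenosine analog, at 250 nM or its vehicle DMSO, and polyA RNA was sequenced from 9 toyocamycin and 8 DMSO libraries. Per arm, 2 libraries were made at 2 h, 3 at 96 h and 1 at each of 24 and 48 h. At 10 h the labels list 1 library on DMSO beside 2 on toyocamycin. The last time is 72 h in the deposited labels and 96 h in the study's text, which is followed here. Replicate 2 of both arms at 2 h and at 10 h formed batch 2 of the labels, and all other libraries formed batch 1. The labels name biological triplicates, but do not say which libraries shared a culture.

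MYC and its paralog MYCN are transcription factors that bind DNA only as a pair with MAX, and such pairs activate genes that hold the E-box hexamer CACGTG. MAX also pairs with the repressors MXD1, MXD3, MXD4, MXI1, MNT and MGA, which compete with MYC for MAX and for the same sites, so that the outcome is known to depend on the proportions of the partners. MLX is a relative of MAX, and its partners include the glucose-responsive factors MondoA and ChREBP. In colon cancer cells MYC is a classical target of WNT signaling, and both its RNA and its protein are short-lived. The study reports toyocamycin as an inhibitor of CDK9, the kinase that releases paused RNA polymerase II, and the time course follows how transcripts responded to it.

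Counts on genes ran from 8735465 to 22121364 per library, and the smallest library was toyocamycin replicate 2 of 10 h. Levels are given as CPM (counts scaled to a common library size) after TMM scaling. The share of counts on mitochondrially encoded genes was 0.917% to 3.47% in DMSO libraries and 1.46% to 6.55% in toyocamycin libraries, and it was highest in replicate 2 of toyocamycin at 10 h. Of 12 colon epithelial markers, 6 reached 1 CPM in every DMSO library, whereas CDX1, VIL1, CDH17, GPA33, LGALS4 and KRT20 did not. The summed level of that list was 1762 to 6933 CPM on DMSO and 538.4 to 5149 CPM on toyocamycin. The 7 stromal, 7 leukocyte and 5 endothelial markers summed to at most 13.7, 0.591 and 0.668 CPM on DMSO and to at most 111, 23.6 and 16.4 CPM on toyocamycin, and their part in the results was not tested.

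The promoters of the network genes bear on the data because several members hold the E-box hexamer themselves and moved in different directions. Promoter sequences from RefSeq (GRCh38.p14), from 250 bases before to 50 bases after the gene start, were matched for 9 of the 10 members. CACGTG, which reads the same on both strands, was found in 3 of these 9, against 8.87% of the 14966 promoters of genes in the table. The 3 are shown in full, 5′ to 3′ on the strand of the gene, with the hexamer in capitals. The hexamer begins 238 bases before the start of MXD4 (minus strand, chr4:2262060-2262359), 193 bases before that of MNT (minus strand, chr17:2401011-2401310) and 50 bases before that of MLX (plus strand, chr17:42566850-42567149).
MXD4: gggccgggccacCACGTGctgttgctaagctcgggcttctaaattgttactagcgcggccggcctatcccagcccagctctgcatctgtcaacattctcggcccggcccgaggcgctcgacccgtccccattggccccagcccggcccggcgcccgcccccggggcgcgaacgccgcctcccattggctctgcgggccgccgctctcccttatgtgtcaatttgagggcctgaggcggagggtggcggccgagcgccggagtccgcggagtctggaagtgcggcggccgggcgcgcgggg
MNT: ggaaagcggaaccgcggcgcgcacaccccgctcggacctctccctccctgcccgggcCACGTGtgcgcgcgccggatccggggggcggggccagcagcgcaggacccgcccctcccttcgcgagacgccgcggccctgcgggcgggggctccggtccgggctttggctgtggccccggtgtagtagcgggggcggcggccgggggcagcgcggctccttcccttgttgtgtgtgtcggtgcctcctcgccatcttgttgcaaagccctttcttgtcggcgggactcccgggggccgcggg
MLX: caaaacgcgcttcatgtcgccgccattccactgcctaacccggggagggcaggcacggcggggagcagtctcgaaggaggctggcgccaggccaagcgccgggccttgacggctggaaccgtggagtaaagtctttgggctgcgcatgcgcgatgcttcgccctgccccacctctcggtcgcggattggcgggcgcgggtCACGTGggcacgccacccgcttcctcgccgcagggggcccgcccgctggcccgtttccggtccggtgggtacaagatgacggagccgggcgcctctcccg
MNT was higher and MXD4 and MLX were lower on toyocamycin at 96 h, so these 3 genes did not share a direction. A match of letters is no evidence that a factor was bound there.

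On DMSO the network was led by MYC. Divided by the length of all annotated exons, the level at 96 h was 58.8 CPM per kb for MYC (53.0 to 62.0 over 3 libraries). MLX followed with 13.2 CPM per kb, and then MAX (6.95), MXI1 (6.81), MXD4 (5.15), MNT (2.96), MXD3 (2.88), MGA (1.6), MYCN (1.5) and MXD1 (0.875). The libraries overlapped between the neighbors MAX and MXI1, MNT and MXD3, and MGA and MYCN, so their order is not resolved. On toyocamycin at 96 h the order became MYC (1422 CPM per kb), MNT (73.3), MAX (20.6), MXD1 (9.09), MXI1 (7.57), MLX (5.10), MGA (3.09), MXD4 (0.993), MYCN (0.782) and MXD3 (0.461). Here the libraries overlapped only between MXD4 and MYCN. With the length of the canonical transcript, chosen after the data had been seen, MXI1 came before MXD1 and MXD3 before MXD4 on toyocamycin, while MYC, MNT and MAX led in both cases. On DMSO, that length moved MXD3 from place 7 to place 4 (12.8 CPM per kb), before MXI1, MXD4 and MNT, so its place depends on the length used.

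**Figure D1:**
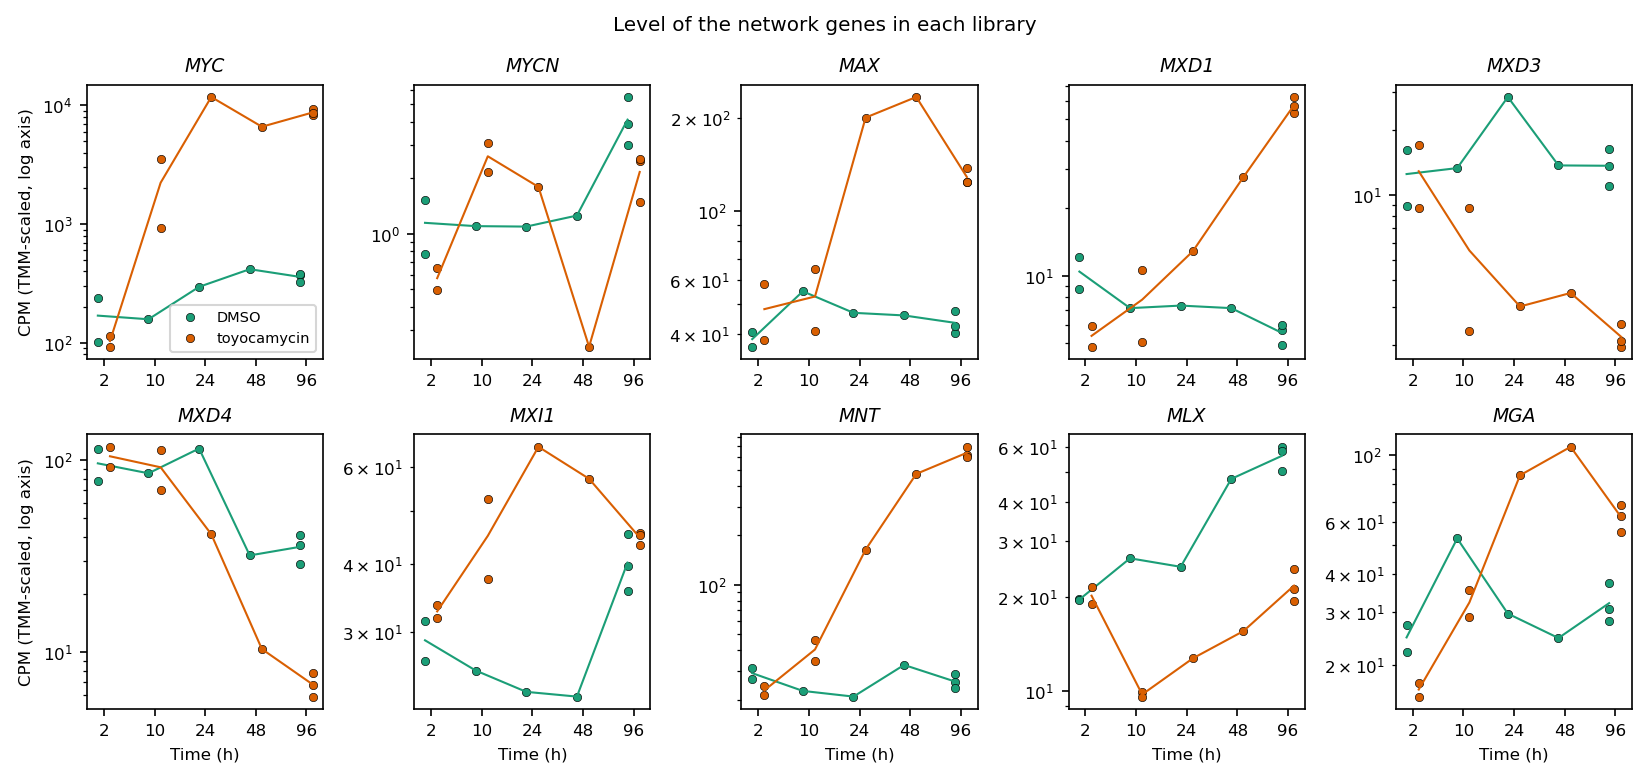
Level of each of the 10 genes in every library, in TMM-scaled CPM on a log axis whose range differs between panels, against the time of treatment, with points for single libraries and lines through the arm means. MYC and MNT on toyocamycin stand far above DMSO from 24 h on, MXD3 and MXD4 fall away from it, and MXI1 is back among the DMSO libraries at 96 h.

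The first comparison asked how the network stood after 2 h of treatment, the earliest time. In the fit without a batch term, the repressor genes MXD1 and MGA were downregulated and no member was upregulated. MYC itself was lower in each batch without passing the threshold in that fit. A fit with the batch as a block, given below, called more members. Over all 14491 genes tested, 8.42% were downregulated and 0.518% upregulated, beside 2 and 0 of the 10 members. At an unadjusted p under 0.05, 4 members were lower and 0 were higher, where 12.6% of all genes were lower and 2.39% higher. The median log2 fold change of the members was -0.15, against 0.02 over all genes.

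MXD1 (chromosome 2, 69897688 to 69942945), a repressor that rises in many differentiating cells, was at 8.75 and 12.1 CPM on DMSO and at 5.97 and 4.82 CPM on toyocamycin. Both toyocamycin libraries lay below both DMSO libraries, but the share of all genes without overlap at 2 h was not counted. The log2 fold change of MXD1 was -0.94 (standard error, SE, 0.211, and Benjamini-Hochberg adjusted p = 0.0111 by the quasi-likelihood test of edgeR). MGA (chromosome 15, 41621134 to 41773081) encodes a very large protein that holds a T-box DNA-binding domain besides its MAX-binding domain. Its levels were 22.1 and 27.2 CPM on DMSO and 17.4 and 15.7 CPM on toyocamycin, again without overlap, with a log2 fold change of -0.57 (SE 0.183, adjusted p = 0.0822 by that test). Neither call held when replicate 2 of either arm was left out (adjusted p = 0.112 to 0.115 for MXD1 and 0.332 to 0.368 for MGA), and MGA was not called without replicate 1 of toyocamycin either (adjusted p = 0.162).

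MYC (chromosome 8, 127735434 to 127742951) was at 239 and 101 CPM on DMSO and at 114 and 92.9 CPM on toyocamycin. The DMSO libraries differed from each other by more than the lower of them did from either toyocamycin library, and the arms overlapped. The log2 fold change was -0.71 (SE 0.280, edgeR adjusted p = 0.197). Within batch 1 MYC went from 239 to 114 CPM, and within batch 2 from 101 to 92.9 CPM. Because the replicate number at 2 h is also the batch, a fit of the 4 libraries of 2 h alone was made with that number as a replicate block. There MYC passed as downregulated with a log2 fold change of -0.61 (edgeR adjusted p = 4.44e-07), unlike in the fit without that block. Each batch holds 1 library per arm, so the spread in the block fit came largely from other genes. Its p therefore does not measure how far the fall of MYC differed between the batches. With the block, 4 members were downregulated (MYC, MXD1, MNT and MGA) and 1 was upregulated (MAX, 0.28, adjusted p = 0.0845), against 18.7% and 8.72% of the 11848 genes in that fit. Without replicate 1 of DMSO, when toyocamycin of both batches was set against DMSO of batch 2, the log2 fold change of MYC was 0.04.

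MNT (chromosome 17, 2384073 to 2401104), the repressor of the network that most cell types express, was at 31.2 and 26.7 CPM on DMSO and at 24.0 and 21.5 CPM on toyocamycin. The libraries did not overlap, but the difference did not pass the threshold (log2 fold change -0.35, edgeR adjusted p = 0.316, and 0.0419 with the replicate block). MYCN (chromosome 2, 15940550 to 15947007) had only 12 to 36 counts per library at this time, and its log2 fold change was -1.03 with an adjusted p of 0.356 from edgeR. MAX, MXD3, MXD4, MXI1 and MLX had log2 fold changes of 0.04 to 0.32, and none of them passed the threshold. The arms did not overlap for MYCN, lower on toyocamycin, and for MXI1, higher on toyocamycin, either, so such a gap was not particular to the falling repressor genes.

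**Figure D2:**
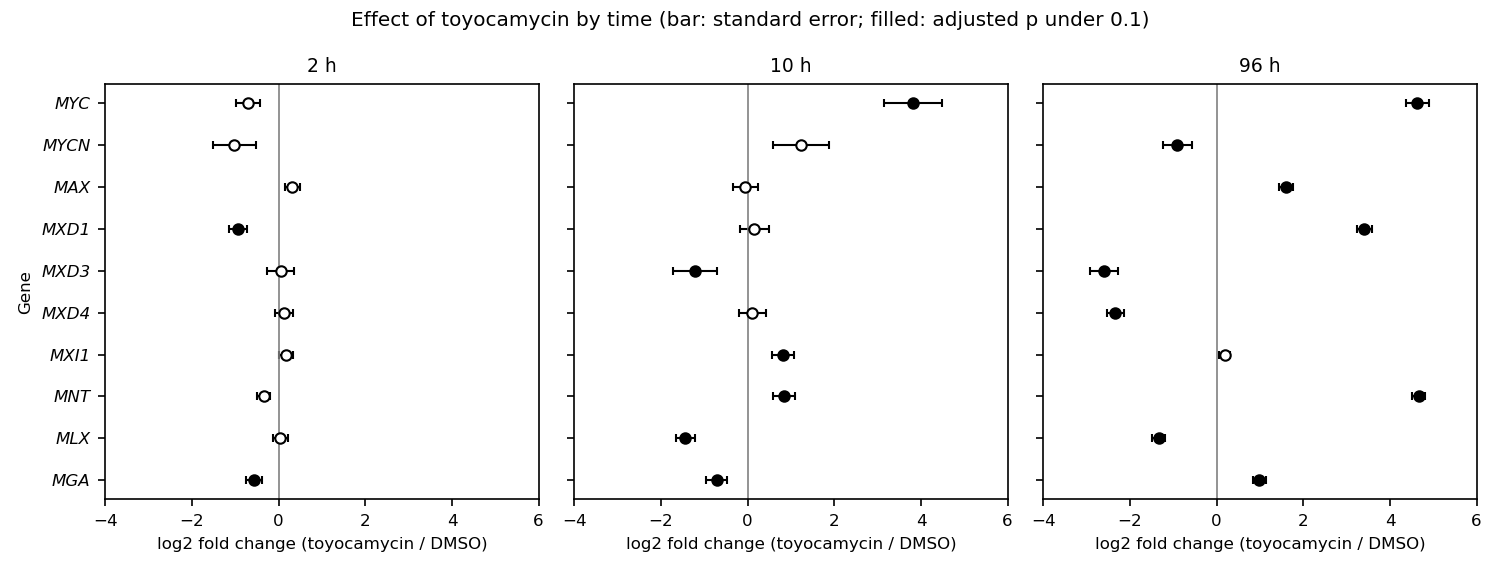
Log2 fold change of toyocamycin against DMSO for each gene at 2, 10 and 96 h, with bars for the standard error of edgeR and filled points for genes with an adjusted p under 0.1. From left to right the panels hold 2, 6 and 9 filled points, which lie left of 0 in the first panel and on both sides of it in the others.

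At 10 h, the question was in which order the members left the DMSO level. MYC was already above DMSO, together with the repressor genes MXI1 and MNT, whereas MXD3, MLX and MGA were below it. Of all 16521 genes tested, 24.4% were downregulated and 20.4% upregulated, and among the members 3 fell and 3 rose. The median over all genes was 0.42 on the log2 scale, and changes are best read relative to it. The comparison rested on 1 DMSO library of batch 2, whose spread was taken from the other groups. The arms can therefore be compared within batch 2 only, since batch 1 holds no DMSO library of 10 h.

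MYC was at 158 CPM on DMSO and at 3530 and 927 CPM on toyocamycin, a log2 fold change of 3.82 (SE 0.664, edgeR adjusted p = 3.61e-04). Both toyocamycin libraries lay above the DMSO library, but they differed from each other more than any other pair of replicates did for this gene in CPM. Within batch 2, where each arm had 1 library, the log2 fold change was 2.55, and between toyocamycin of batch 1 and DMSO of batch 2 it was 4.49.

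MNT was at 22.6 CPM on DMSO and at 46.3 and 34.4 CPM on toyocamycin (log2 fold change 0.84, edgeR adjusted p = 0.0160). MXI1 (chromosome 10, 110207605 to 110287365), which encodes a MAX partner of the MXD family, was at 25.6 CPM on DMSO and at 52.5 and 37.5 CPM on toyocamycin (0.82, adjusted p = 0.0162). Scaled by library size alone neither passed, and mitochondrial scaling, which sets the mitochondrially encoded genes to no change, turned their signs (-0.25 for MNT and -0.27 for MXI1).

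MLX (chromosome 17, 42567072 to 42573239) was the member with the firmest fall at this time, from 26.5 CPM on DMSO to 9.92 and 9.62 CPM on toyocamycin. Its log2 fold change was -1.44 (SE 0.219, edgeR adjusted p = 1.17e-04), and -1.46 within batch 2. MGA fell from 52.7 CPM to 28.9 and 35.6 CPM (-0.71, adjusted p = 0.0281), although this DMSO library was also the highest of all DMSO libraries for MGA. MXD3 (chromosome 5, 177301461 to 177312757), a repressor of the MXD family that proliferating cells are known to express, was at 13.3 CPM on DMSO and at 8.71 and 2.32 CPM on toyocamycin. Its log2 fold change was -1.21 (edgeR adjusted p = 0.0763). Within batch 2 it was -2.52, with batch as a term it was -1.97 (adjusted p = 1.04e-04), and with toyocamycin of batch 1 alone it was -0.61 and did not pass (adjusted p = 0.307).

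MAX, MXD1 and MXD4 did not pass at 10 h. MAX was at 55.0 CPM on DMSO and at 64.7 and 41.0 CPM on toyocamycin, with the DMSO library between the others, and MXD1 (7.17 against 10.6 and 5.08 CPM) and MXD4 (85.2 against 113 and 70.0 CPM) showed the same overlap. In each of these 3 genes, replicate 1 of toyocamycin was the higher.

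At 24 and 48 h each arm had 1 library, so the values describe those libraries and no test was made. MYC was at 297 CPM on DMSO and at 11735 CPM on toyocamycin at 24 h, a ratio of 39.6 (95% exact binomial interval 38.7 to 40.5, which covers counting error only), and this was its highest level in any library. At 48 h it was at 418 and 6595 CPM, a ratio of 15.8 (15.5 to 16.2). MNT went the other way in time, from a ratio of 7.87 (7.16 to 8.65) at 24 h to 14.6 (13.5 to 15.8) at 48 h, with 164 and 474 CPM on toyocamycin. MAX (chromosome 14, 65006174 to 65102695) reached 201 CPM on toyocamycin at 24 h and 234 CPM at 48 h, against 46.8 and 45.9 CPM on DMSO.

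The repressors did not move as a block in these libraries. MGA stood at 85.6 and 107 CPM on toyocamycin against 29.6 and 24.5 CPM on DMSO at 24 and 48 h, and MXI1 at 65.4 and 57.2 CPM against 23.4 and 22.9 CPM. MXD1 was at 12.9 and 27.6 CPM against 7.36 and 7.17 CPM. By contrast MXD3 was at 3.03 and 3.50 CPM against 28.6 and 13.7 CPM, and MXD4 (chromosome 4, 2247432 to 2262109), an MXD repressor known from resting and differentiating cells, at 41.1 and 10.4 CPM against 115 and 31.9 CPM. MLX was at 12.7 and 15.5 CPM against 24.9 and 47.4 CPM. MYCN had 3 counts on toyocamycin and 26 on DMSO at 48 h, a toyocamycin to DMSO ratio of 0.195 with a counting interval of 0.0378 to 0.636.

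Past a log2 difference of 1, 5 members were higher and 2 lower at 24 h, where 25.2% and 24.0% of all genes were that far apart. At 48 h 6 members were higher and 4 lower, against 35.6% and 26.3% of all genes. Every member was therefore past 1 at 48 h. Under mitochondrial scaling, the 24 h differences of MAX, MXD1, MXI1, MGA and MYCN had the opposite sign, as had that of MXI1 at 48 h. With library size alone, those of MXD1 (0.80 under TMM and -0.19) and MYCN (0.66 and -0.26) at 24 h did so too.

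At 96 h, with 3 libraries per arm, the comparison asked what the network looked like after the longest treatment. MYC, MAX and the repressor genes MXD1, MNT and MGA were upregulated, and MYCN, MXD3, MXD4 and MLX were downregulated. MXI1 was the member that did not pass the threshold (log2 fold change 0.18, edgeR adjusted p = 0.202). Since 47.0% of all genes were upregulated and 41.9% downregulated at this time, 9 called members of 10 is close to the background, and the sizes of the changes carry more than the count. The median log2 fold change was 0.58 over the members and 0.18 over all genes. In bulk RNA, a change in the make-up of the culture and a change of RNA per cell cannot be told apart.

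MYC was at 375, 379 and 324 CPM on DMSO and at 8265, 9213 and 8586 CPM on toyocamycin, so every toyocamycin library was more than an order of magnitude above every DMSO library. MNT was at 28.4, 25.4 and 23.5 CPM on DMSO and at 617, 693 and 603 CPM on toyocamycin. Its log2 fold change was 4.66 (SE 0.147, edgeR adjusted p = 7.57e-13), beside 4.63 (SE 0.263) for MYC, so the estimates for the activator and for its repressor differed by less than either error. An unnamed long noncoding gene on the opposite strand shares 12.2% of the exon bases of MNT. Counted per kb, MNT went from places 7044 to 7660 among 19080 genes on DMSO to places 641 to 730 on toyocamycin. MYC ranked 359 to 405 by counts in the DMSO libraries of 96 h and 10 to 11 on toyocamycin, where it took 0.624% to 0.669% of all counts.

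MXD1 was the next in size, from 5.75, 4.92 and 6.01 CPM on DMSO to 62.8, 53.5 and 57.0 CPM on toyocamycin (log2 fold change 3.41, SE 0.176, edgeR adjusted p = 6.47e-11). MAX rose less, from 40.3, 42.5 and 47.5 CPM to 138, 125 and 125 CPM (1.6, SE 0.152, adjusted p = 8.01e-08). MAX shares 13.1% of its exon bases with FNTB on the opposite strand. MGA rose from 28.0, 30.7 and 37.6 CPM to 68.2, 62.5 and 55.4 CPM (0.98, SE 0.147, adjusted p = 1.43e-05). The 3 toyocamycin libraries were above the 3 DMSO libraries for all 5 upregulated genes. With 47.0% of all genes upregulated at 96 h this is not particular to the network, and the share of all genes without overlap was not counted.

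Of the genes that fell, MXD3 was at 16.4, 13.6 and 10.99 CPM on DMSO and at 1.97, 2.50 and 2.09 CPM on toyocamycin (log2 fold change -2.61, SE 0.321, edgeR adjusted p = 1.63e-06). Of the annotated exon bases of MXD3, 24.2% are shared with PRELID1 on the opposite strand and 19.5% with RAB24 on the same strand, and the strand setting of the counting is not given in the sources used here, so its level is uncertain. MXD4 was at 41.0, 36.2 and 29.0 CPM on DMSO and at 5.90, 6.76 and 7.82 CPM on toyocamycin (-2.34, SE 0.199, adjusted p = 2.22e-08). These 2 genes were also lower on toyocamycin at 24 and 48 h, and at 96 h no library of one arm reached the range of the other. The log2 difference of MXD3 was -3.19 at 24 h and -1.94 at 48 h, so its gap to DMSO did not widen steadily. MXD4 was also lower on DMSO at 48 h (31.9 CPM) than at 24 h (115 CPM).

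MLX was at 50.2, 59.96 and 58.2 CPM on DMSO and at 21.2, 24.5 and 19.4 CPM on toyocamycin (log2 fold change -1.34, SE 0.142, edgeR adjusted p = 2.93e-07). MLX shares 18.2% of its exon bases with PSMC3IP on the opposite strand. MYCN was at 3.91, 5.48 and 3.00 CPM on DMSO and at 2.46, 1.48 and 2.52 CPM on toyocamycin (-0.90, SE 0.334, adjusted p = 0.0195). Its call did not hold without replicate 2 of DMSO (-0.65, adjusted p = 0.11) or with DESeq2's size factors (-0.59, adjusted p = 0.117), and over its alternatives the adjusted p ran from 3.85e-04 to 0.239.

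The scaling of the libraries mattered for the smaller changes. TMM sets the typical gene near 0, and the median over all genes at 96 h moved to 0.50 with DESeq2's size factors, to -0.42 by library size and to -0.89 with mitochondrial scaling. MYC (3.53 to 4.95 over these scalings), MXD1 (2.35 to 3.73) and MNT (3.55 to 4.98) were higher in all of them, and MXD3, MXD4 and MLX were lower in all of them. MAX was 0.54 and no longer passed with the mitochondrial scaling (edgeR adjusted p = 0.254), and MGA turned to -0.06 (adjusted p = 0.898). MXI1 ran from -0.86 to 0.51 over these scalings, and its result was the same in only 9 of 16 alternatives, so its lack of a call is not settled.

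**Figure D3:**
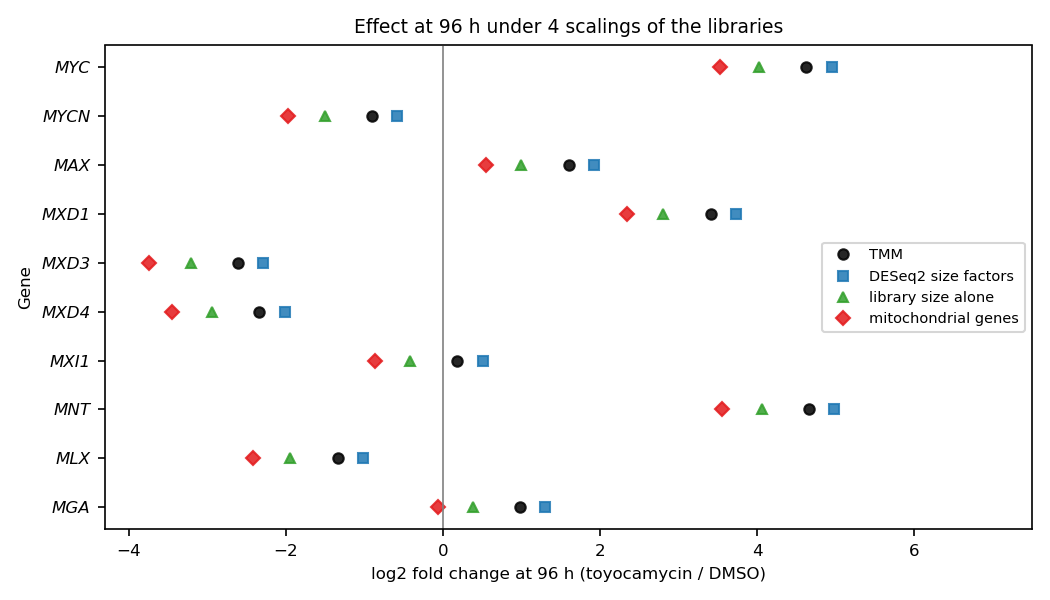
Log2 fold change of each gene at 96 h under TMM, under the size factors of DESeq2, under library size alone and under mitochondrial scaling. All 10 genes shift by a like amount between scalings, so MYC, MXD1 and MNT stay right of 0 and MYCN, MXD3, MXD4 and MLX left of it, while MXI1 and MGA cross 0.

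Ratios within a library do not depend on that scaling. The size of a ratio does depend on the gene lengths used, whereas its log2 difference between the arms does not. Per kb of exon, MYC exceeded MAX by 9.54, 9.11 and 6.98 times in the DMSO libraries of 96 h and by 61.5, 75.8 and 70.6 times in the toyocamycin libraries. On the log2 scale the ratio was 3.08 ± 0.243 on DMSO and 6.11 ± 0.153 on toyocamycin (SD, n = 3), a difference of 3.03 with p = 0.1 in a two-sided exact permutation test, the smallest p that 3 against 3 allows. The ratio was 6.72 and 2.55 on DMSO and 3.07 and 1.64 on toyocamycin at 2 h, and 2.95 on DMSO and 55.8 and 23.2 on toyocamycin at 10 h. With the length of the canonical transcript MAX came closer to MYC. At 96 h the means of MYC and MAX were then 96.6 and 21.6 CPM per kb on DMSO and 2335 and 64.1 on toyocamycin. In replicate 2 of toyocamycin at 2 h, MYC (24.97) was then below MAX (28.9).

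The ratio of MYC to MNT behaved otherwise. It was 18.8, 21.2 and 19.7 on DMSO at 96 h and 19.1, 18.9 and 20.3 on toyocamycin, so the arms overlapped. At 10 h it was 9.99 on DMSO and 108.5 and 38.4 on toyocamycin, and at 24 h 20.3 and 102. By 48 h it was 18.3 on DMSO and 19.8 on toyocamycin. The ratio was thus above that of DMSO at 10 and 24 h and near the DMSO ratio of the same time at 48 and 96 h. DMSO had 1 library at 10 h, and each arm had 1 at 24 and 48 h. At 2 h the ratio was 10.9 and 5.40 on DMSO and 6.78 and 6.17 on toyocamycin, so the DMSO ratio was itself not constant over time.

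Both the sum and the make-up of the repressor transcripts differed between the arms. Summed per kb over MNT, MXD1, MXD3, MXD4, MXI1 and MGA, the level was 19.7 to 21.0 CPM per kb on DMSO at 96 h and 90.2 to 100.1 CPM per kb on toyocamycin. MNT held 13.7% to 15.5% of that sum on DMSO and 76.1% to 79.6% on toyocamycin. MXD4 held 21.4% to 28.3% on DMSO at 96 h and 0.920% to 1.26% on toyocamycin. At 2 h, MXD4 was the leading repressor transcript in both arms, with 54.3% and 45.6% on DMSO and 55.1% and 54.4% on toyocamycin. Over all 10 members, MYC made up 55.7% to 60.2% of the summed level per kb on DMSO at 96 h and 91.8% to 92.4% on toyocamycin.

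**Figure D4:**
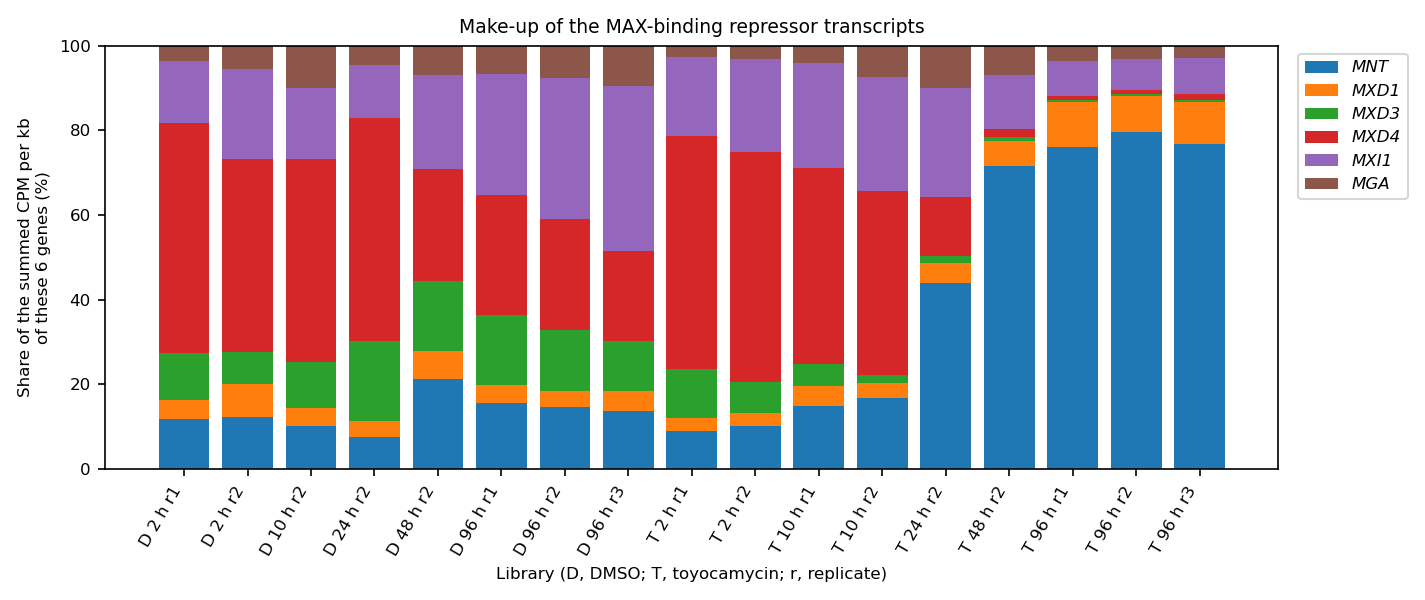
Share of each gene in the summed CPM per kb of exon of the 6 repressor genes, as stacked bars for each library, DMSO on the left and toyocamycin on the right. MXD4 is the widest band on toyocamycin at 2 and 10 h, and MNT takes 76.1% to 79.6% at 96 h.

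Whether the effect of toyocamycin itself differed between 2 and 96 h was tested as a difference of the effects. It differed for 8 members, 5 with a higher and 3 with a lower value at 96 h, where 38.0% and 38.1% of all genes differed in these directions. MXD1, downregulated at 2 h and upregulated at 96 h, had a difference of 4.35 on the log2 scale (SE 0.274, edgeR adjusted p = 1.95e-09). MGA also passed in opposite directions at these times, with a difference of 1.56 (SE 0.235, adjusted p = 2.41e-05), which mitochondrial scaling lowered to 0.57 (adjusted p = 0.507). For MXI1 (0.01) and MYCN (0.12) no difference passed the threshold. Both effects come from the same fit but from separate DMSO libraries.

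The members also moved in culture without the drug. From 2 to 96 h on DMSO, MYC (log2 fold change 1.08, edgeR adjusted p = 0.0123), MYCN (1.82, adjusted p = 0.00479), MXI1 (0.47, adjusted p = 0.0454) and MLX (1.52, adjusted p = 2.03e-05) rose, and MXD1 (-0.91, adjusted p = 0.00467) and MXD4 (-1.44, adjusted p = 1.37e-04) fell. The background was 10.2% of genes higher and 11.4% lower. MLX went from 19.7 and 19.5 CPM to between 50.2 and 59.96 CPM, so on toyocamycin at 96 h (19.4 to 24.5 CPM) it lay near the DMSO level of 2 h. MXD4 on the other hand fell on DMSO from 114 and 77.98 CPM and was lower still on toyocamycin. Batch 2 holds only 1 DMSO library of these times, at 2 h, and with batch as a term 2 members in place of 4 were higher. These were MYCN and MLX, and MYC and MXI1 did not pass. Over 9 alternatives the calls of MYCN and MLX held in 9, those of MYC, MXD1 and MXD4 in 8 and that of MXI1 in 3. Leaving out a library moved the log2 fold change of MYC between 0.59 and 1.83.

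Next, genes around the network were examined from lists of known partners, regulators and targets. Their counts at 96 h stand against 41.9% of all genes downregulated and 47.0% upregulated. At 96 h, 10 of 11 genes of the SIN3 and histone deacetylase complexes, through which the MXD proteins and MNT are known to repress, were downregulated and 1 was upregulated, with a median log2 fold change of -2.75. HDAC1, a histone deacetylase, fell from 182 ± 15.7 to 15.1 ± 1.53 CPM (SD, n = 3). SAP18, a small SIN3-associated protein, was the one that rose, from 101 ± 1.90 to 613 ± 62.5 CPM. The rise of MNT and MXD1 transcripts therefore stood beside lower transcripts of most of their corepressors, and the median was negative under all 4 scalings.

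Of 11 coactivators of MYC, 9 fell and 2 rose at 96 h (all genes, 41.9% and 47.0%). TRRAP, the scaffold that brings acetyltransferases to MYC, went from 312 ± 9.93 to 58.1 ± 8.07 CPM (SD, n = 3), and RUVBL2, an ATPase of the same complexes, from 252 ± 29.6 to 35.4 ± 2.74 CPM. The acetyltransferase genes CREBBP (84.0 ± 8.62 to 344 ± 47.4 CPM) and EP300 (68.4 ± 1.17 to 193 ± 17.7 CPM) rose. At 2 h both had been downregulated, EP300 from 85.1 to 42.6 CPM in the mean of 2 libraries.

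Among 14 genes that control the stability of the MYC protein, 11 fell and 3 rose at 96 h, against 41.9% and 47.0% of all genes. FBXW7, which encodes the ubiquitin ligase that marks phosphorylated MYC for destruction, rose from 18.1 ± 1.63 to 120 ± 12.1 CPM (SD, n = 3), whereas USP28, a deubiquitinase that opposes it, fell from 30.8 ± 4.54 to 0.814 ± 0.409 CPM. HUWE1, another ligase of MYC, fell from 383 ± 5.57 to 71.6 ± 7.94 CPM. GSK3B, the kinase that creates the FBXW7 mark, rose from 97.1 ± 7.77 to 221 ± 19.4 CPM. Protein was not measured here.

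Of 10 partners of MGA in the polycomb complex PRC1.6, 7 fell and 3 rose at 96 h, beside the 41.9% and 47.0% of all genes. E2F6, the DNA-binding factor of that complex, was downregulated at 2 h (-0.75, edgeR adjusted p = 0.00972) and upregulated at 96 h (2.55), the same pair of directions as MGA. RYBP rose from 34.1 ± 4.55 to 214 ± 21.0 CPM, and TFDP1 fell from 279 ± 17.4 to 45.0 ± 2.96 CPM (SD, n = 3). On the MLX side, MLXIPL, which encodes ChREBP, fell from 29.0 ± 4.06 to 0.658 ± 0.470 CPM, and MLXIP, which encodes MondoA, from 150 ± 10.5 to 96.4 ± 9.07 CPM. MYCL, the third MYC paralog, fell from 7.44 ± 1.59 to 3.76 ± 1.08 CPM.

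The MondoA and MLX targets TXNIP and ARRDC4, both arrestin genes that restrain glucose uptake, fell at 2 h and rose at 96 h. TXNIP went from 181 ± 6.55 to 43.3 ± 7.13 CPM at 2 h (SD, n = 2; log2 fold change -2.07, edgeR adjusted p = 9.33e-06). At 96 h it went from 9.02 ± 1.41 to 247 ± 17.8 CPM (SD, n = 3), which is 4.80 on the log2 scale. ARRDC4 did the same, with -1.35 at 2 h and 6.93 at 96 h. Its mean level was 73.2 CPM on DMSO and 28.6 CPM on toyocamycin at 2 h, and 3.7 and 439 CPM at 96 h. The DMSO levels of both genes were thus far lower at 96 h than at 2 h, which enlarges their log2 fold changes at 96 h. On toyocamycin at 96 h, the mean levels of both genes were also above their DMSO means of 2 h. Their rise at 96 h stood beside lower MLX, MLXIP and MLXIPL.

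Of 9 other E-box factors, 5 were higher and 3 lower at 96 h, which is close to the 47.0% and 41.9% of all genes. BHLHE41 and BHLHE40, repressors of the circadian clock that bind E-boxes, went from 0.475 ± 0.157 to 1082 ± 171 CPM and from 69.1 ± 8.78 to 3771 ± 349 CPM (SD, n = 3). USF1 and TFEB, activators at such sites, fell from 43.1 ± 0.833 to 18.0 ± 2.55 CPM and from 13.6 ± 2.45 to 2.53 ± 0.123 CPM. With mitochondrial scaling, 3 were higher and 4 lower and the median turned from 0.76 to -0.34.

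The genes that MYC is known to activate moved in both directions, in counts close to the background at 2 and 96 h. At 2 h 7 of the 61 tested were downregulated and 0 upregulated (median 0.04), where 8.42% and 0.518% of all genes were. At 10 h the counts were 27 and 9 (median -0.45), against 24.4% and 20.4%, and at 96 h 28 and 26 (median -0.15), against 41.9% and 47.0%. MCM5, a subunit of the replicative helicase, fell at 96 h from 196 ± 21.1 to 8.80 ± 1.74 CPM (SD, n = 3), and HK2, a hexokinase, from 480.3 ± 24.0 to 31.7 ± 4.59 CPM. On DMSO at 2 h HK2 had been at 96.4 ± 5.07 CPM (SD, n = 2), so its DMSO level was itself higher at 96 h. NOP58, a core protein of box C/D small nucleolar RNPs, rose from 77.0 ± 8.05 to 509 ± 73.6 CPM. PPAN and NOP2 also rose, but 49.2% and 54.4% of their exon bases lie in other annotated genes, so their levels are uncertain. Under DESeq2's size factors the median at 96 h was 0.18, with 25 lower and 29 higher, and under mitochondrial scaling it was -1.18, with 35 lower and 6 higher.

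Of 12 genes that MYC is known to repress, 5 were downregulated at 2 h and 0 upregulated, against 8.42% and 0.518% of all genes. At 96 h 8 were upregulated and 3 downregulated (median 2.71), against 47.0% and 41.9%. CDKN1A, the cell cycle inhibitor p21, fell from 72.8 ± 15.3 to 34.9 ± 2.79 CPM at 2 h (SD, n = 2) and rose from 203 ± 19.2 to 4289 ± 287 CPM at 96 h (SD, n = 3). GADD45B, a stress gene, rose from 67.0 ± 7.38 to 13120 ± 724 CPM at 96 h. NDRG1, a differentiation gene of the same list, fell from 374 ± 43.9 to 4.17 ± 1.17 CPM. The median at 96 h was positive under all 4 scalings.

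**Figure D5:**
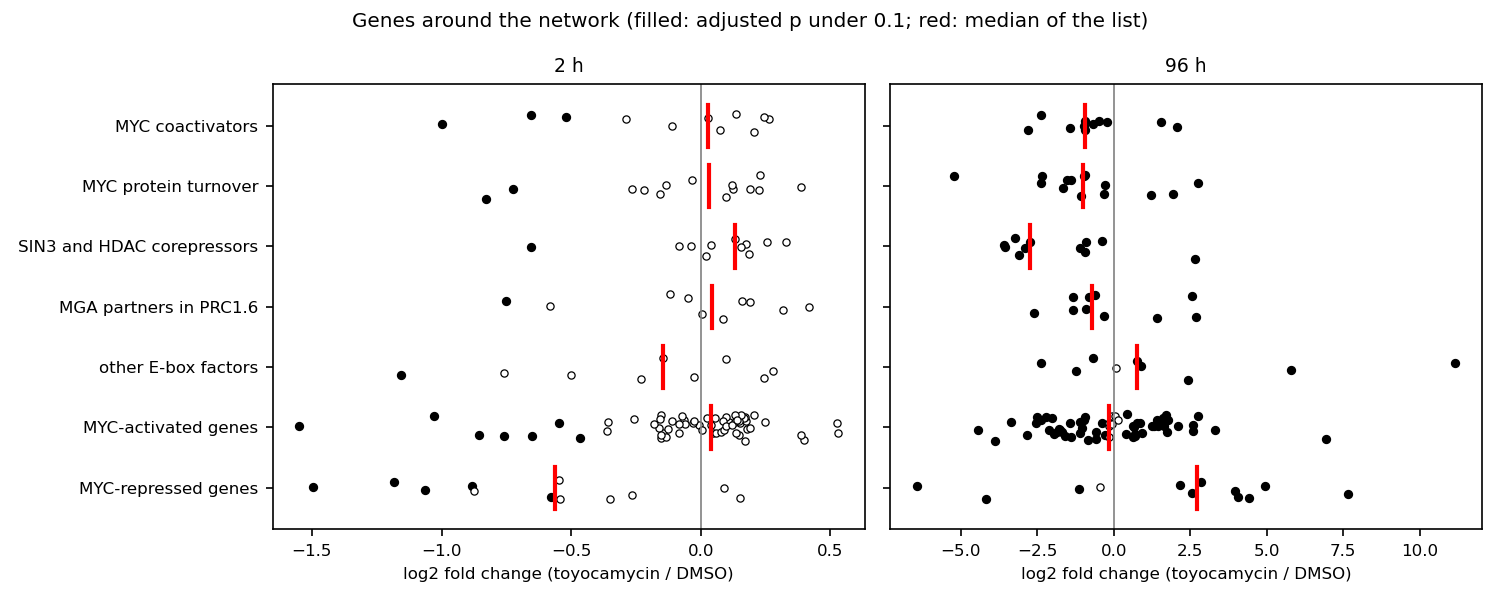
Log2 fold change at 2 h and 96 h of single genes in 7 lists around the network, with filled points for an adjusted p under 0.1 and red bars for the list medians; the horizontal axes differ. At 96 h the corepressors center on -2.75 and the MYC-repressed genes on 2.71, while the MYC-activated genes lie on both sides of 0.

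Genes with CACGTG in the promoter window were set beside the rest, with no test. The motif was present in 22 of 50 MYC-activated genes with a promoter sequence and in 1 of 9 MYC-repressed genes. Among all genes tested at 96 h, the 1123 with the motif had a median log2 fold change of -0.10, and the 10466 without it 0.14. In the MYC-activated list these medians were -0.29 over 21 genes and 0.05 over 28 genes.

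The genes whose level across the 17 libraries was most like that of MYC were found by Pearson's r of log2 CPM over 7142 genes. These were IRF2BP2 (r = 0.986), CCN1 (0.984), ZFP36L1 (0.984), KLF9 (0.983) and CSRNP1 (0.982), and the most opposite were PRKAG1 (-0.979), WASHC5 (-0.978), UBTF (-0.978), NAA35 (-0.974) and GNL3L (-0.973). The libraries share treatment and time, so these values are a description of 17 points. Within the network, MYC followed MNT (r = 0.895) and MAX (0.862) most closely and ran opposite to MXD3 (-0.798). The closest pair was MXD1 and MNT (0.947), while MLX correlated weakly with MYC (-0.380).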

How the data were processed

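Total RNA of YB5 cells was selected by polyA and sequenced as 150-bp read pairs. Alignment by the authors used STAR 2.7.5a on GRCh38, and they deposited unnormalized read counts for 19141 genes. A further column of the count table, 1 in number and named as replicate 1 of DMSO at 10 h, matched no sample and was not used. The authors' table of comparisons, with fold changes and p-values, was not used. Groups, replicates and batches were taken from the labels. Symbols, positions and exon lengths of 19080 genes came from a GENCODE annotation of the same build.

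Counts were filtered with filterByExpr, scaled with TMM and tested with the quasi-likelihood test of edgeR 4.0.16 in its earlier form (R 4.3.3, limma 3.58.1), with Benjamini-Hochberg adjustment over all genes tested and a threshold of 0.1. A fit of 14 libraries without those of 10 h covered 14491 genes and gave the results at 2 and 96 h, and a fit of all 17 libraries covered 16521 genes and gave those at 10 h. At 24 and 48 h, differences of log2 CPM (prior count 2) past 1 are described without a test. Levels per kb used the union of annotated exons. Libraries of an arm and time differed beyond counting noise, and none was a duplicate. At 2 h same-numbered libraries deviated from their arm means together (r = 0.661) and the number is the batch in the labels, so the numbers pair the samples there. The edgeR script was run on counts simulated for the 96 h comparison, with few changed genes and no batches. These data differ from that setting, so the run does not bear on the calls at 2 h or on scaling at 96 h. Counting intervals hold only for counting error, as the reads carry no molecular identifiers, and p-values measure the spread between these libraries. In edgeR, part of the spread of each gene is taken from other genes.

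Members, lists and tests were chosen with earlier results of these data known. All 10 members are named. From the other lists, the text draws on the 3 highest and the 3 lowest log2 fold changes at 96 h among called genes whose average log2 CPM reached 2, without overlap between arms, and on the called genes at 2 h. A gene that this rule also names is not reported here. Genes like MYC were sought among those whose average log2 CPM reached 4. Alternatives were DESeq2's size factors and Wald test (DESeq2 1.42.0), library size alone, mitochondrial scaling, the edgeR 4 test, no filter, batch as a term, a replicate block, single time points, a threshold of 0.05, and leaving out each library. Canonical transcript length was added after the data had been seen. Python 3.11.15, pandas 2.3.3 and matplotlib 3.10.9 were used for promoters and plots.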

Additional observations from a re-analysis of the deposited data

Results flagged for a closer look

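The effect of toyocamycin differed between 2 and 96 h, tested as a difference of the effects in edgeR, for 8 of the 10 genes. Over all genes tested, 38.0% had a higher and 38.1% a lower effect at 96 h, so this count is close to the background. On the log2 scale the effect at 96 h minus that at 2 h was 5.34 for MYC, 5.01 for MNT, 4.35 for MXD1, 1.56 for MGA and 1.28 for MAX. It was -2.65 for MXD3, -2.46 for MXD4 and -1.38 for MLX. The adjusted p was at most 1.75e-04 among these genes. The 3 toyocamycin libraries of 96 h lay on the stated side of the 3 DMSO libraries for each of them, and the share of all genes without overlap was not counted. With scaling on the mitochondrially encoded genes the differences of MAX (0.39, adjusted p = 0.679) and MGA (0.57, adjusted p = 0.507) did not pass, and the other 6 did.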

How the results depend on the processing

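Over its alternatives, MYC at 96 h had a log2 fold change of 3.53 to 4.95 and MNT of 3.55 to 4.98, both called in all 16. Scaled on the mitochondrially encoded genes, the members called were 0 lower at 2 h, 1 higher at 10 h, 1 higher and 5 lower at 24 h, 2 higher at 48 h, 3 higher at 96 h, 3 with a higher effect at 96 h than at 2 h, and 0 lower on DMSO over time. With library size alone 1 was higher at 10 h and 3 at 24 h. With DESeq2's size factors 1 was lower at 2 h and 1 at 10 h. At 2 h, 1 was lower at a threshold of 0.05 and with that time point alone, and leaving out a library gave 0 to 2 lower and 0 to 1 higher. With the replicate block at 2 h, 4 were lower and 1 higher. At 96 h same-numbered libraries did not deviate together (r = -0.276, 0.182 and -0.243), so the numbers do not pair samples, and a replicate block there gave 6 higher and 4 lower, MXI1 being added. With batch as a term, 2 were higher on DMSO over time. The causes were not tested.

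Signs that turned, mostly in genes that were not called, were as follows. Under mitochondrial scaling they were MLX -0.12, MXD3 -0.17 and MXD4 -0.10 at 2 h, MNT -0.25, MXD1 -0.90, MXD4 -0.96 and MXI1 -0.27 at 10 h, MAX -0.16, MGA -0.72, MXI1 -0.77, MXD1 -1.43 and MYCN -1.41 at 24 h, MXI1 -0.50 at 48 h, and MGA -0.064 and MXI1 -0.86 at 96 h. MNT on DMSO over time was 0.49, and the effect at 96 h minus that at 2 h was -0.96 for MXI1 and -0.68 for MYCN. With library size alone they were MLX -0.0198 and MXD3 -0.0164 at 2 h, MXD1 -0.35 and MXD4 -0.38 at 10 h, MXD1 -0.19 and MYCN -0.26 at 24 h, MXI1 -0.42 at 96 h, MXD3 -0.0353 on DMSO over time, and differences between effects of -0.54 for MXI1 and -0.41 for MYCN. MAX at 10 h was 0.15 with DESeq2's size factors and with its Wald test. With batch as a term, MXD4 was -0.20 at 10 h, MXD3 -0.37 on DMSO over time and the difference of MXI1 -0.0199.

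Leaving out a library turned MAX at 10 h (-0.42 to 0.24) and at 2 h (-0.0122 to 0.60), MLX at 2 h (-0.052 to 0.13), MXD1 at 10 h (-0.50 to 0.56), MXD3 at 2 h (-0.53 to 0.54) and on DMSO over time (-0.24 to 0.62), MXD4 at 10 h (-0.28 to 0.42) and at 2 h (-0.12 to 0.42), and MYC at 2 h (-1.20 to 0.035). The difference between effects ran from -0.12 to 0.12 for MXI1 and from -0.46 to 0.50 for MYCN. Depth limits MYCN most, with 3 to 118 counts per library.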
